A study of Rattus norvegicus with 15 samples.

Results

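The 10 genes named for endocrine progenitors, cell growth and loss of beta cell identity were followed in rat islets after removal of most of the pancreas. They are Neurog3, Sox4, Sox11, Myc, Mycl, Fev, Gast, Cck, Tnfrsf11b and Vim, taken by symbol from a list drawn up with earlier results of these data known. Of these 10 genes, 9 were found in the count table of 28914 genes, and Sox4 was not analysed here. Of the 9, 6 (Myc, Mycl, Fev, Gast, Tnfrsf11b and Vim) passed the filter on low counts in each comparison, and Neurog3, Sox11 and Cck did not.

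Polyadenylated RNA of isolated islets of Langerhans was sequenced from 15 Lewis rats, 10 weeks after surgery. The age on the labels is 4-5 weeks, with no word on the time it refers to. Collection came 10 weeks after surgery, so it cannot be the age at collection. The averaged glucose of each rat before killing is labelled with no unit. The Sham group (n = 5) had a sham operation and a glucose of 88 to 96. Both Px groups had lost 90% of the pancreas to partial pancreatectomy, with a glucose of 104 to 211 in lower-glucose Px (n = 7) and of 416 to 464 in higher-glucose Px (n = 3). No transgene or drug is named for any group. The titles of all 15 libraries also carry the mark Inc_YES, whose meaning is not given. The islets of a Px rat come from the pancreas left or regrown after surgery, and rats are named below by the number on their label. Each library was taken as 1 rat, so p-values measure the spread between rats.

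Neurog3 is the transcription factor that commits pancreatic progenitor cells to the endocrine lineage; it is switched off as islet cells mature. Sox4 and Sox11 are related high-mobility-group factors of developing tissues, and Fev is an ETS factor that acts after Neurog3 in endocrine precursors and that drives serotonin genes in neurons and beta cells. Myc and its relative Mycl are growth-promoting transcription factors, and forced Myc activity in beta cells is known to lower insulin and other mature genes. Gastrin (Gast) and cholecystokinin (Cck) are gut hormones that the developing or stressed pancreas can make. Osteoprotegerin (Tnfrsf11b) is a secreted decoy receptor, and vimentin (Vim) is the intermediate filament of mesenchymal cells, also used as a mark of dedifferentiated epithelial cells.

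Library totals were 12.2 to 18.4 M counts in Sham, 19.1 to 31.6 M in lower-glucose Px and 22.3 to 33.4 M in higher-glucose Px. The labelled tissue was checked against its markers. Of 7 beta cell markers measured, 6 were lower in Px, but none was at 0 in any group. Other cell types moved with surgery: 19 of 20 acinar, 13 of 13 macrophage and 14 of 14 mesenchymal markers were higher in Px, and none of these was at 0 in any group. The acinar share of counts was 5.37% ± 5.67 (SD, n = 5, range 1.07 to 15.3%) in Sham and 33.0% ± 9.53 (SD, n = 10, range 20.8 to 49.5%) in Px, with p = 0.000333 (exact permutation test, two-sided, adjusted 0.000799 over 12 marker lists). In bulk tissue of this kind, fewer cells of a type and less RNA per cell cannot be told apart. Expression is given below as CPM, counts per M of library size after TMM scaling, and changes are log2 fold changes ± standard error from edgeR's quasi-likelihood test with Benjamini-Hochberg adjustment over all genes tested.

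Upstream sequences from RefSeq (build GRCr8) were found for 6 of the 9 genes. Those of Vim, Fev and Gast are printed because these genes passed the test in at least 1 comparison below, so that the start region behind each reading can be seen. Each line holds the 250 bases before the annotated start, 5′ to 3′ on the gene's strand, with capitals for matches to the motifs searched.
Vim, chr17:81577011-81577260, plus strand: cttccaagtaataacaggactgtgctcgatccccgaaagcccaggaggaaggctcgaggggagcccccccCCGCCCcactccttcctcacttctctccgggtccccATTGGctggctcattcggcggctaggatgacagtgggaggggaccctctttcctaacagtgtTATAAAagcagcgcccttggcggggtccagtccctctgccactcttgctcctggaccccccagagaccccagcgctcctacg
Fev, chr9:83891719-83891968, minus strand: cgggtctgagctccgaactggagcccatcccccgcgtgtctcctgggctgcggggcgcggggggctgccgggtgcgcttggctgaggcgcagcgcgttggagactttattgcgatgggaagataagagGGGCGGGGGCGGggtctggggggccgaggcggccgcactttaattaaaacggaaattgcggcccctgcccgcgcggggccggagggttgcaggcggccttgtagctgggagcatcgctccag
Gast, chr10:85764966-85765215, plus strand: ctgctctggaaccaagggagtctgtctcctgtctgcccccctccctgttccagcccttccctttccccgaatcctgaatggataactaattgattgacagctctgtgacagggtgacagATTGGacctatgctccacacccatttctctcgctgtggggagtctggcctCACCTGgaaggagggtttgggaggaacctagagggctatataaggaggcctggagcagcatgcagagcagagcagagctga
Both strands were searched for 7 motifs. They were the GC box (letters GGGCGG), the TATA box (letters TATAAA) and the CCAAT box, which occur near many gene starts. Helix-loop-helix factors bind the E-box (letters CANNTG), and Myc with Max binds its canonical form (letters CACGTG), which is a subset of the first. The last ones were the AP-1 site (letters TGANTCA) and the core bound by Sox factors (letters AACAAAG). No 2 matches marked in these windows overlap. The Vim window held a reverse GC box from position −180, a reverse CCAAT box from −144 and a TATA box from −82, counted back from the start. Fev held 2 adjoining GC boxes from −122 and −116. Gast held a reverse CCAAT box from −131 and an E-box from −81. None of the 6 windows held the canonical E-box, the AP-1 site or the Sox core. Over 33469 promoter windows of this length, a GC box was present in 30.5%, a TATA box in 12.9%, a CCAAT box in 34%, an E-box in 65.5%, its canonical form in 5.59%, the AP-1 site in 6.34% and the Sox core in 5.14%. These matches describe letters and not binding.

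All Px rats were first compared with Sham. Myc and Vim rose and Tnfrsf11b fell, by 8.80-fold, 11-fold and 2.62-fold, and Mycl, Fev and Gast did not pass the test. So 3 of the 6 members tested were called. Over all 15199 genes tested, 34.5% were called higher and 30.2% lower (64.7% in either direction), so the number of members called is no larger than for genes in general, and what follows describes the genes one by one. The 3 members called were also those whose CPM ranges did not overlap between Px and Sham, which held for 37.3% of all genes tested (20.6% upwards and 16.6% downwards). In lower-glucose Px alone 2 of the 6 members tested (Myc and Vim) were higher and 2 (Fev and Tnfrsf11b) lower than in Sham, where 33.6% of the 15661 genes tested were higher and 30% lower (63.5% in all). In higher-glucose Px 3 (Myc, Vim and Gast) were higher and 1 (Tnfrsf11b) lower, where 32.2% of all genes were higher and 25.5% lower (57.7% in all). The ranges of the 4 members called in lower-glucose Px did not overlap with Sham, as held there for 41.4% of all genes tested. In higher-glucose Px the ranges of Myc, Vim and Tnfrsf11b did not overlap with Sham, while Gast overlapped, and separate ranges held for 54.3% of all genes tested. The range of Cck, which was under the filter, was also separate there.

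**Figure D1:**
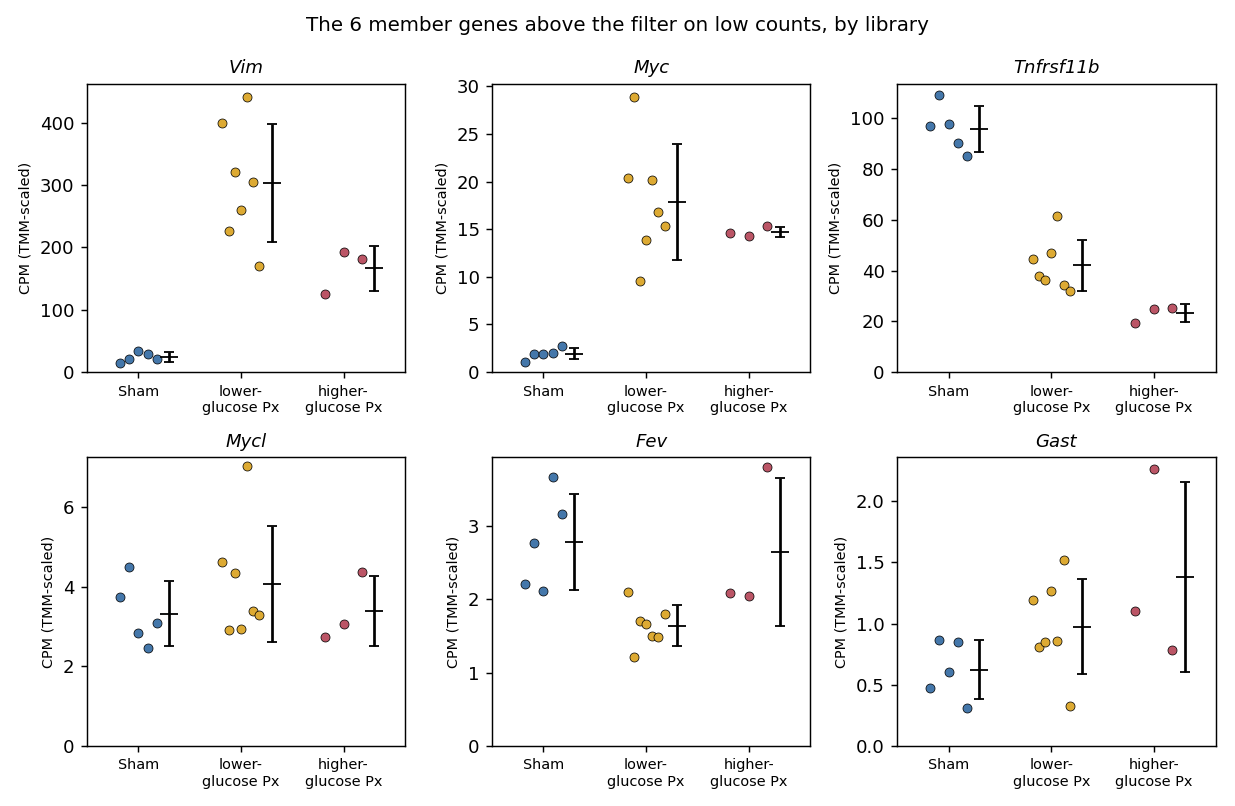
CPM (linear axis from 0) of the 6 members above the filter, 1 point per rat (5 Sham, 7 lower-glucose Px, 3 higher-glucose Px), with the group mean and SD beside the points. Vim and Myc lie higher in each Px rat than in any Sham rat, Tnfrsf11b falls in steps over the 3 groups without overlap, and the points of Mycl and Gast overlap between all groups.

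Neurog3 itself (chromosome 20, 31761405 to 31762893, plus strand; no source used here names the genome build of the count table) was at the edge of detection. Raw counts in the 5 Sham rats were 0, 0, 1, 3 and 1. In lower-glucose Px they were 3, 1, 0, 0, 0, 1 and 0, and in the higher-glucose rats 13, 19 and 15 they were 2, 1 and 3. No group held a rat with more than 3 counts, and the groups overlapped. Pooled, Neurog3 stood at 0.0494 CPM in Sham (95% exact Poisson interval 0.0160 to 0.115, counting error only) and 0.0474 CPM in Px (0.0237 to 0.0849). The mean CPM per rat did not differ detectably (exact permutation test, two-sided, p = 0.80, adjusted 0.80 over 6 such tests; 10 against 5 rats), nor between higher- and lower-glucose Px (exact p = 0.10, adjusted 0.20; 3 against 7 rats). At these depths a difference of the size of the counting intervals was not detectable.

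Most of the endocrine factors tested that act with or after Neurog3 were lower in Px. Of 12 listed genes, 11 were in the table and 10 were tested, of which 0 rose and 9 fell, with a median log2 change of −1.06 against 0.02 over all genes. The counts for this list and those below stand beside 34.5% of all genes called higher and 30.2% lower in Px against Sham. Isl1, a LIM factor of all islet cell types, fell from 60.4 ± 6.45 to 28.1 ± 2.51 CPM (−1.10 ± 0.08, adjusted p = 1.74e-08). Pax6, which maintains islet hormone expression, fell from 114 to 54.0 CPM (−1.07), and Myt1, a zinc finger factor of endocrine precursors, from 81.5 to 30.2 CPM (−1.42). Pax4, a factor of early beta cell precursors, was below the filter with a mean of 0.126 CPM in Sham and 0.00737 CPM in Px. Fewer of these genes passed with the mesenchymal marker score as a covariate (5 lower) and with scaling by 8 endocrine granule genes (6 lower). Calls over all genes shrank as well, from 4596 lower to 943 with the mesenchymal score and 715 with granule scaling.

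Sox11 (chromosome 6, 46629974 to 46631983, minus strand), a factor of embryonic pancreas, was not detected in Sham and was detected at a low level in most Px rats. Raw counts were 0 in each of the 5 Sham rats. In lower-glucose Px the counts were 8, 0, 3, 1, 12, 10 and 2, from rats 14, 16, 2, 4, 8, 10 and 11. In higher-glucose Px they were 0, 0 and 3. Rats 8, 10 and 14 thus held most of the 39 counts in Px, and 3 Px rats had none, so the groups overlapped at 0. Pooled, Px stood at 0.168 CPM (95% exact Poisson interval 0.120 to 0.230). That is 5.67-fold above a floor of 3 counts over the Sham group (0.0296 CPM), where the upper 95% limit for Sham was 0.0365 CPM. This ratio is no lower bound, and it does not cover the spread between rats. Higher-glucose Px, with 3 counts in all, was at its own floor. The mean per rat did not pass (exact two-sided permutation test, p = 0.0513, adjusted 0.154 over 6 tests; 10 against 5 rats). Without the filter on low counts edgeR called Sox11 higher in Px (adjusted p = 0.0119).

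**Figure D2:**
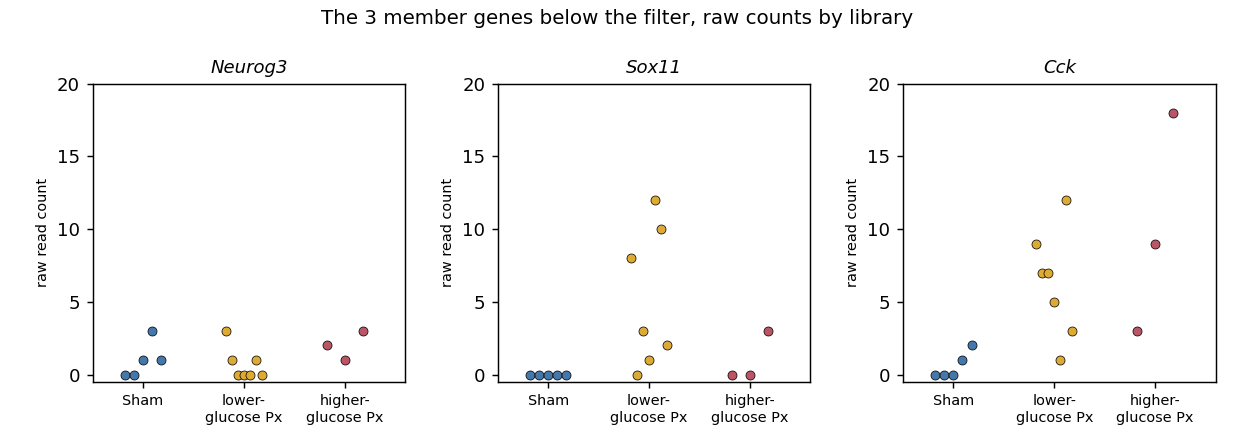
Raw read counts (linear axis) of Neurog3, Sox11 and Cck, 1 point per rat, in the 3 groups. No library exceeds 3 counts for Neurog3, the 5 Sham rats are at 0 for Sox11, and Cck counts are 0 to 2 in Sham and 1 to 18 in Px.

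Factors of multipotent pancreatic progenitors, several of which adult duct, acinar or islet cells also express, changed in both directions. Of 13 listed, 13 were tested, 8 rose and 4 fell, with a median log2 change of 1.56 against 0.02 over all genes. Gata6 rose from 2.63 ± 0.346 to 9.42 ± 1.63 CPM (1.85 ± 0.15), the Notch target Hes1 from 3.90 to 11.4 CPM (1.56) and the duct and progenitor factor Sox9 from 0.633 to 4.98 CPM (2.97). Nkx6-1 fell from 230 ± 26.7 to 75.3 ± 11.6 CPM (−1.60), Pdx1 from 38.2 to 19.9 CPM (−0.93) and Foxa2 from 108 to 59.3 CPM (−0.86). Acinar markers moved with these libraries, with a summed level of 6903 to 123669 CPM in Sham and 175210 to 814033 CPM in Px. Of 10 duct markers, 8 were higher in Px, with summed levels of 194 to 276 CPM in Sham and 402 to 589 CPM in Px, and the list holds Sox9. The duct share of counts did not differ detectably, at 0.0327% in Sham and 0.0465% in Px (exact permutation test, two-sided, adjusted p = 0.131). With the acinar share as a covariate 6 of the factors were called higher and 3 lower, and the part of duct cells was not tested. With granule scaling 9 rose and 1 fell: Nkx6-1 passed (−1.01), Pdx1 (−0.34) and Foxa2 (−0.26) did not, and Prox1, which had fallen by 0.52 on the log2 scale, changed sign (0.050).

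Myc (chromosome 7, 102586313 to 102591240, plus strand) was scarce in Sham and rose in each Px rat. Sham rats 23, 27, 24, 26 and 25 held 1.05, 1.91, 1.92, 1.97 and 2.73 CPM. Lower-glucose rats 14, 16, 2, 4, 8, 10 and 11 held 20.4, 28.9, 9.57, 13.8, 20.1, 16.8 and 15.4 CPM. Higher-glucose rats 13, 19 and 15 held 14.5, 14.3 and 15.3 CPM. The lowest Px rat, number 2, was thus well above the highest Sham rat, and the 3 higher-glucose rats were close together in the lower part of the lower-glucose range. The change was 3.14 ± 0.26 (95% interval 2.59 to 3.68, adjusted p = 5.99e-08). In lower-glucose Px it was 3.21 ± 0.26 (adjusted p = 8.08e-08) and in higher-glucose Px 2.94 ± 0.29 (1.05e-06); both of these comparisons use the same Sham rats. The 2 Px groups did not differ detectably (−0.27 ± 0.26, 95% interval −0.83 to 0.29, adjusted p = 0.559). With the acinar share as a covariate the change was 2.41 (adjusted p = 4.14e-05). With the macrophage marker score as a covariate it was 1.46 (adjusted p = 0.621), a fit in which 0 of the 15199 genes were called.

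Mycl (chromosome 5, 140692779 to 140698609, plus strand), the relative of Myc, did not follow it. Sham rats held 3.74, 4.51, 2.83, 2.46 and 3.08 CPM, lower-glucose rats 4.63, 2.90, 4.34, 2.93, 7.02, 3.38 and 3.28, and higher-glucose rats 2.72, 3.07 and 4.38, in the rat order given for Myc. The 3 groups overlapped, and lower-glucose rat 8 stood apart at 7.02 CPM. The difference between Px and Sham was 0.24 ± 0.23 (95% interval −0.24 to 0.71, adjusted p = 0.371). Without rat 8 it was 0.10 (adjusted p = 0.646). Scaling by the granule genes gave 0.87 (adjusted p = 0.0224), and scaling by library totals −0.37.

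The genes around Myc moved less than Myc. Of 9 partners and antagonists tested, 1 rose and 4 fell, with a median log2 change of −0.10. Max, the obligate partner of Myc, was 39.6 ± 2.77 CPM in Sham against 36.8 ± 3.76 CPM in Px (−0.10, adjusted p = 0.285). Mnt, a repressor that competes with Myc for Max, fell from 53.0 ± 9.10 to 28.8 ± 3.96 CPM (−0.87 ± 0.11, adjusted p = 4.25e-06). Mga fell by 0.54 and Mlx by 0.44 on the log2 scale, and both changed sign with granule scaling (0.04 and 0.14). Mxd4, an antagonist, rose by 0.18 (adjusted p = 0.0454), and it was −0.46 with library totals. With library totals 0 of the 9 rose and 8 fell, and with granule genes 5 rose and 0 fell.

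Of 22 ribosome-building and metabolic genes known as Myc targets, 9 rose and 3 fell, with a median log2 change of 0.15 against 0.02 over all genes. In the same fit 34.5% of all genes rose and 30.2% fell, so the number rising is near that for genes in general. Npm1, a nucleolar chaperone, rose from 61.3 ± 5.70 to 127 ± 22.3 CPM (1.06 ± 0.12), Dctpp1, which hydrolyses modified nucleotides, from 0.764 to 3.08 CPM (2.0) and Odc1, the first enzyme of polyamine synthesis, from 111 to 214 CPM (0.96). Cad (−0.35), Mybbp1a (−0.36) and Nop58 (−0.19) fell, and each of these 3 was above 0 with granule scaling. The count of this list turned with the scaling: with library totals 1 rose and 12 fell, and with granule genes 19 rose and 0 fell. With the acinar share as a covariate 2 rose and 2 fell.

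Fev (chromosome 9, 82142981 to 82146874, minus strand) was lower in lower-glucose Px than in Sham. Sham rats held 2.21, 2.77, 2.12, 3.67 and 3.17 CPM. Lower-glucose rats held 2.10, 1.21, 1.70, 1.66, 1.51, 1.49 and 1.81 CPM, each below the lowest Sham rat, as was the case downwards for 18.6% of all genes tested. Higher-glucose rats held 2.09, 2.05 and 3.81 CPM, which spans the Sham range. In lower-glucose Px the change was −0.76 ± 0.21 (95% interval −1.20 to −0.32, adjusted p = 0.00426), a 1.70-fold fall. In higher-glucose Px it was −0.06 ± 0.26 (adjusted p = 0.851), and the difference between the Px groups did not pass (0.70 ± 0.24, 95% interval 0.19 to 1.21, adjusted p = 0.102). Over all Px rats it was −0.51 ± 0.23 (adjusted p = 0.0619); without higher-glucose rat 15 it was −0.67 (adjusted p = 0.00423) and without Sham rat 24 it was −0.60 (0.0468). DESeq2 (−0.54, adjusted p = 0.0455) and limma voom (−0.57, 0.0285) called it. With granule scaling the change in lower-glucose Px was −0.08 (adjusted p = 0.786).

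Of 8 genes of serotonin synthesis, storage and breakdown, some of which Fev controls in neurons, 2 rose and 4 fell in Px, with a median log2 change of 0.10. Tph1, the rate-limiting enzyme of serotonin synthesis outside the brain, was at 0 to 0.202 CPM in Sham, at 0.343 to 1.09 CPM in lower-glucose Px and at 1.95 to 3.72 CPM in higher-glucose Px. The 3 ranges did not overlap. Separate upward ranges held for 22.8% of all genes in lower-glucose Px against Sham, 29.9% in higher-glucose Px against Sham and 5.22% between the Px groups. The step of Tph1 between the Px groups passed (2.27 ± 0.43, adjusted p = 0.00608) but not with library totals (1.82, adjusted p = 0.0687). Slc18a2, the vesicular monoamine carrier, rose from 0.497 to 1.08 CPM (1.12, adjusted p = 0.00201), a call lost with library totals (0.47, adjusted p = 0.279). Maob, which breaks down monoamines, fell from 196 ± 18.8 to 71.5 ± 10.6 CPM (−1.45), and Ddc, which completes serotonin synthesis, from 142 to 78.2 CPM (−0.85). Slc18a1, the other vesicular carrier, fell from 6.05 to 1.93 CPM (−1.64). Under a filter of at least 1 CPM in every rat of a group, 0 of the list rose and 3 fell.

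Gast (chromosome 10, 88245532 to 88248484, plus strand), the gastrin gene, was detected in each rat at about 1 CPM or less in most. Sham rats held 0.474, 0.867, 0.606, 0.851 and 0.308 CPM, and lower-glucose rats 1.19, 0.810, 0.850, 1.27, 0.856, 1.52 and 0.328. Higher-glucose rats held 1.10, 2.26 and 0.780 CPM. The groups overlapped: lower-glucose rat 11 was close to the lowest Sham rat, and higher-glucose rat 19 was the highest of all. The difference from Sham was 0.83 ± 0.36 over all Px (95% interval 0.06 to 1.60, adjusted p = 0.0548), 0.67 ± 0.38 in lower-glucose Px (adjusted p = 0.134) and 1.15 ± 0.45 in higher-glucose Px (adjusted p = 0.0385). The call in higher-glucose Px was lost without rat 19 (0.60, adjusted p = 0.327), without Sham rat 23, 24 or 25 (adjusted p of 0.0735, 0.0599 and 0.0834) and with limma voom (1.06, 0.0707). Over the other scalings, filters and tools the change in higher-glucose Px ran from 0.22 to 1.54, with adjusted p up to 0.724. Over all Px it passed without Sham rat 27 or 26, lower-glucose rat 11 or higher-glucose rat 15 (adjusted p of 0.0499, 0.0485, 0.0172 and 0.0483). Scaling by the granule genes gave 1.41 over all Px (adjusted p = 0.00209), and scaling by library totals 0.19 (adjusted p = 0.688). The Px groups did not differ detectably (0.49 ± 0.41, 95% interval −0.39 to 1.36).

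Cck (chromosome 8, 130120523 to 130127392, minus strand) was nearly absent from Sham and present in each Px rat. Raw counts were 0, 0, 0, 1 and 2 in Sham rats 23, 27, 24, 26 and 25. They were 9, 7, 7, 5, 1, 12 and 3 in lower-glucose Px and 3, 9 and 18 in higher-glucose Px. Lower-glucose rat 8, with 1 count, overlapped Sham, and the 3 higher-glucose rats lay above every Sham rat in CPM, which held upwards for 29.9% of all genes tested in that comparison. Pooled, Cck stood at 0.0296 CPM in Sham (95% exact Poisson interval 0.00611 to 0.0866, from 3 counts) and 0.319 CPM in Px (0.251 to 0.401, from 74 counts), a ratio of 10.8 with an exact counting interval of 3.54 to 53.4. The mean per rat was higher in Px (exact permutation test, two-sided, p = 0.00799, adjusted 0.0480 over 6 tests; 10 against 5 rats). No difference was detectable between the higher- and lower-glucose rats (0.479 against 0.270 CPM, exact p = 0.158, adjusted 0.238; 3 against 7 rats). Cck is also a hormone of intestinal I cells. Of 6 enteroendocrine markers, a list that holds Gast, Cck and Tph1, 3 were tested, with 1 higher and 1 lower. The list also holds Chga, which is among the 8 granule genes used as an alternative scale. The summed level of the 6 was 555 to 904 CPM in Sham and 381 to 640 CPM in Px, of which Gast, Cck and Tph1 made up a small part. The mean log2 CPM of the same markers ran the other way, from −0.925 to −0.168 in Sham and from 0.0649 to 0.765 in Px. Their part in the rise of Cck was not tested.

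Of the 8 tested genes for the receptors and the processing of gastrin and cholecystokinin, 2 rose and 3 fell, with a median log2 change of −0.02. Qpct, which forms the N-terminal pyroglutamate, rose from 1.60 ± 0.299 to 4.27 ± 1.05 CPM (1.42), and Tpst1, which sulfates tyrosines of such peptides, from 5.97 ± 0.620 to 10.2 ± 1.68 CPM (0.78). The prohormone convertases Pcsk2 (−0.87) and Pcsk1 (−0.80) and the carboxypeptidase Cpe (−0.82) fell. Of these, Pcsk2 and Cpe are among the 8 granule genes used as an alternative scale. The receptor Cckar, at 75.6 ± 4.02 CPM in Sham, stood at 83.9 ± 18.8 CPM in lower-glucose Px and 116 ± 37.0 CPM in higher-glucose Px, where it passed (0.62, adjusted p = 0.0154) but was −0.44 with library totals. The gastrin receptor gene Cckbr had 0 counts in each library. Tpst1 also differed between the Px groups (0.42, adjusted p = 0.0430), and it was −0.09 with library totals. Against Sham 1 of the 8 rose and 6 fell with library totals, and 5 rose and 1 fell with granule genes.

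Tnfrsf11b (chromosome 7, 93798545 to 93826665, minus strand) fell in both Px groups and was lower in the higher-glucose group than in the lower-glucose group. Osteoprotegerin binds the ligands RANKL (Tnfsf11) and TRAIL (Tnfsf10) and keeps them from their receptors. Sham rats held 96.8, 109, 97.8, 90.2 and 85.1 CPM. Lower-glucose rats held 44.4, 37.9, 36.4, 47.1, 61.6, 34.4 and 32.1 CPM, and higher-glucose rats 19.2, 24.9 and 25.4 CPM. No rat of 1 group lay within the range of another. The change was −1.39 ± 0.20 over all Px (95% interval −1.81 to −0.97, adjusted p = 1.24e-05), −1.19 ± 0.14 in lower-glucose Px and −2.04 ± 0.20 in higher-glucose Px (adjusted p of 2.58e-06 and 7.10e-07).

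Higher-glucose Px was a further 1.80-fold below lower-glucose Px in Tnfrsf11b (−0.85 ± 0.18, 95% interval −1.23 to −0.47, adjusted p = 0.0118). Tnfrsf11b was the 1 member of 6 called between the Px groups, where 1.59% of the 15661 genes tested were called lower and 3.29% higher (4.88% in all). Separate ranges in the downward direction held there for 4.73% of all genes, and in the upward direction for 5.22% (9.95% in all). The call between the Px groups was lost without higher-glucose rat 13, the lowest of the 15 (−0.72, adjusted p = 0.0900). Among the 7 lower-glucose rats no slope on log2 glucose was detectable for Tnfrsf11b (−0.17 ± 0.38, 95% interval −1.03 to 0.69, adjusted p = 0.931). Against Sham, granule scaling gave −0.75 (adjusted p = 0.0245) over all Px and −0.49 (0.0526) in lower-glucose Px, and the acinar share as a covariate gave −0.89 (0.0462). The mesenchymal score as a covariate gave −3.10 (0.00169) and the macrophage score −3.22 (0.229).

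The other genes of this ligand and receptor system were less abundant. Tnfrsf11a, the RANKL receptor RANK, which is known from osteoclasts and myeloid cells, rose from 0.533 ± 0.169 to 2.95 ± 0.573 CPM (2.46 ± 0.23, adjusted p = 1.63e-07). It did not differ detectably between the Px groups (−0.07 ± 0.24, 95% interval −0.58 to 0.44). Tnfsf10 rose from 10.7 ± 1.58 to 15.4 ± 3.65 CPM (0.52, adjusted p = 0.00730) but was −0.15 with library totals. Tnfsf11 had 0 counts in each library. Of 13 macrophage markers, 13 were higher in Px, with summed levels of 33.8 to 76.9 CPM in Sham and 790 to 3938 CPM in Px, and their part in the rise of Tnfrsf11a was not tested.

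Vim (chromosome 17, 80882666 to 80891212, plus strand) showed the largest rise of the 6 tested members over all Px and in lower-glucose Px, while in higher-glucose Px the rise of Myc was slightly larger (2.94 against 2.81). Sham rats held 13.8, 21.3, 34.3, 29.3 and 20.7 CPM. Lower-glucose rats held 399, 227, 320, 260, 441, 306 and 170 CPM, and higher-glucose rats 126, 193 and 181 CPM. Each Px rat was above each Sham rat, and the higher-glucose rats overlapped only the lower end of the lower-glucose group, rat 11 at 170 CPM. The change was 3.46 ± 0.33 over all Px (95% interval 2.77 to 4.15, adjusted p = 2.02e-07), 3.67 ± 0.28 in lower-glucose Px (adjusted p = 3.96e-08) and 2.81 ± 0.29 in higher-glucose Px (adjusted p = 1.60e-06). The difference between the Px groups was −0.86 ± 0.29 (95% interval −1.47 to −0.25) and did not pass (adjusted p = 0.0962). It passed with DESeq2 (−0.87, adjusted p = 0.025) and without lower-glucose rat 11 (−0.96, adjusted p = 0.0483).

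Vim moved together with markers of mesenchymal cells and of macrophages. The summed level of 14 mesenchymal markers, which do not hold Vim, was 363 to 755 CPM in Sham, 3587 to 8646 CPM in lower-glucose Px and 1814 to 2788 CPM in higher-glucose Px. The 3 groups did not overlap in this sum, and 4 of the 14 markers were lower in higher- than in lower-glucose Px. As a share of counts the markers did overlap, with 0.114% in Sham rat 24 and 0.0981% in higher-glucose rat 13. The share did not differ detectably between the Px groups (exact permutation test, two-sided, adjusted p = 0.233). The summed level of 13 macrophage markers was 33.8 to 76.9 CPM in Sham, 790 to 3938 CPM in lower-glucose Px and 836 to 1110 CPM in higher-glucose Px. The rats with the highest Vim, 8 and 14, were also those with the highest macrophage sums, 3938 and 1926 CPM. Their mesenchymal sums were 6195 and 4440 CPM. With the mesenchymal score as a covariate the Vim change was 0.68 (adjusted p = 0.327), and with the macrophage score 0.035 (adjusted p = 0.992). Both scores were higher in each Px rat than in any Sham rat, so these fits cannot tell surgery from the markers. Over all genes the mesenchymal fit called 1507 higher and 943 lower, and the macrophage fit called 0. The part of these cells in the rise of Vim was not tested.

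**Figure D3:**
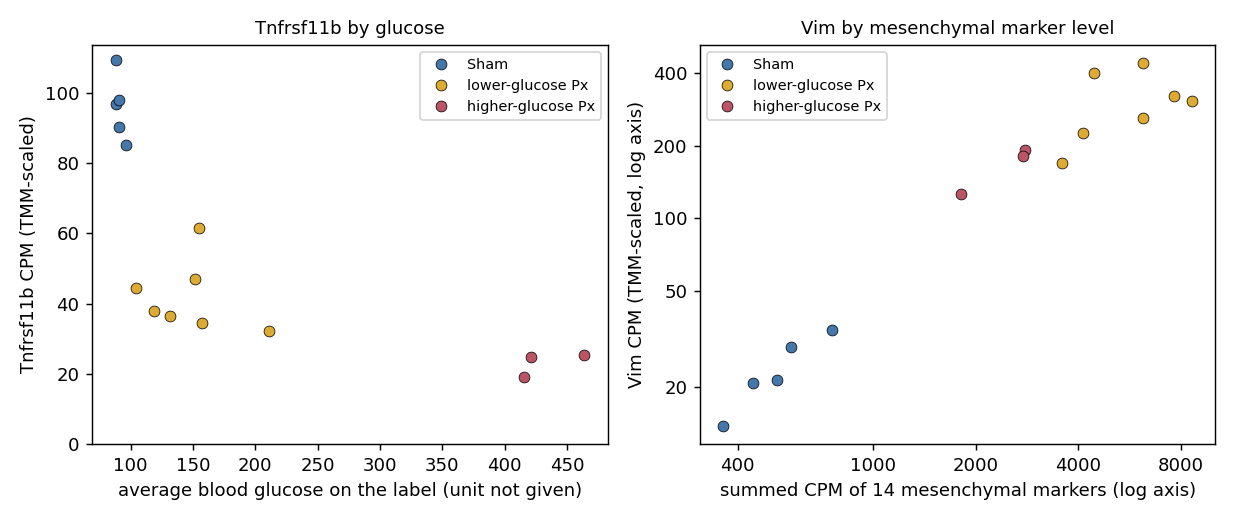
Left, Tnfrsf11b CPM (axis from 0) against the average blood glucose on each rat's label. Right, Vim CPM against the summed CPM of 14 mesenchymal markers, both on log axes; 1 point per rat in 3 groups. Tnfrsf11b is 85.1 to 109 CPM in Sham, 32.1 to 61.6 in lower-glucose Px and 19.2 to 25.4 in higher-glucose Px, and both Vim and the mesenchymal sum have their highest values in lower-glucose Px, though in different rats (8 for Vim, 10 for the sum).

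Of 15 other intermediate filament genes and factors or cadherins of epithelial to mesenchymal transition, 12 rose and 2 fell, with a median log2 change of 0.84 against 0.02 over all genes. Zeb2, a repressor of epithelial genes, rose from 3.47 ± 0.950 to 30.2 ± 11 CPM (3.13 ± 0.27). Desmin (Des), the filament of muscle and stellate cells and itself among the mesenchymal markers, rose from 1.90 to 24.4 CPM (3.68), and nestin (Nes), a filament of progenitor and stromal cells, from 9.25 to 41.9 CPM (2.19). The epithelial cadherin Cdh1 fell from 355 ± 63.4 to 219 ± 31.3 CPM (−0.69), and the neural cadherin Cdh2 from 54.9 to 37.4 CPM (−0.55). Snai2 did not pass (0.03, adjusted p = 0.914). Between the Px groups Cdh2 was higher (0.51, adjusted p = 0.00643) and the lamin Lmnb1 lower (−0.73, adjusted p = 0.0357) at higher glucose. Neither passed with library totals (adjusted p of 0.932 and 0.0721) or with granule scaling (0.147 and 0.0638). With the mesenchymal score as a covariate 4 of the 15 rose and 0 fell, with library totals 7 rose and 2 fell, and with granule scaling 12 rose and 0 fell, with Cdh1 at −0.099 and Cdh2 at 0.019.

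Among 6 further genes tested that are used as marks of beta cell dedifferentiation, 3 rose and 2 fell, with a median log2 change of 0.84. Aldh1a3, a retinaldehyde dehydrogenase of failing beta cells, rose from 2.78 ± 1.14 to 29.5 ± 11.7 CPM (3.42 ± 0.33). Cd44, a hyaluronan receptor of many cell types, rose from 5.92 to 57.8 CPM (3.30) and the surface protein gene Cd24 from 21.8 to 79.8 CPM (1.88). Foxo1, which guards beta cell identity under stress, fell from 63.1 ± 7.55 to 27.8 ± 2.90 CPM (−1.17), and Bach2 from 6.11 to 3.67 CPM (−0.73). Between the Px groups none of the 6 passed, while with granule scaling Bach2 (−0.83, adjusted p = 0.0432) and Foxo1 (−0.48, adjusted p = 0.0480) were lower at higher glucose. Against Sham the fall of Bach2 was lost with granule scaling (−0.14, adjusted p = 0.570). With the mesenchymal score as a covariate 1 rose and 1 fell.

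**Figure D4:**
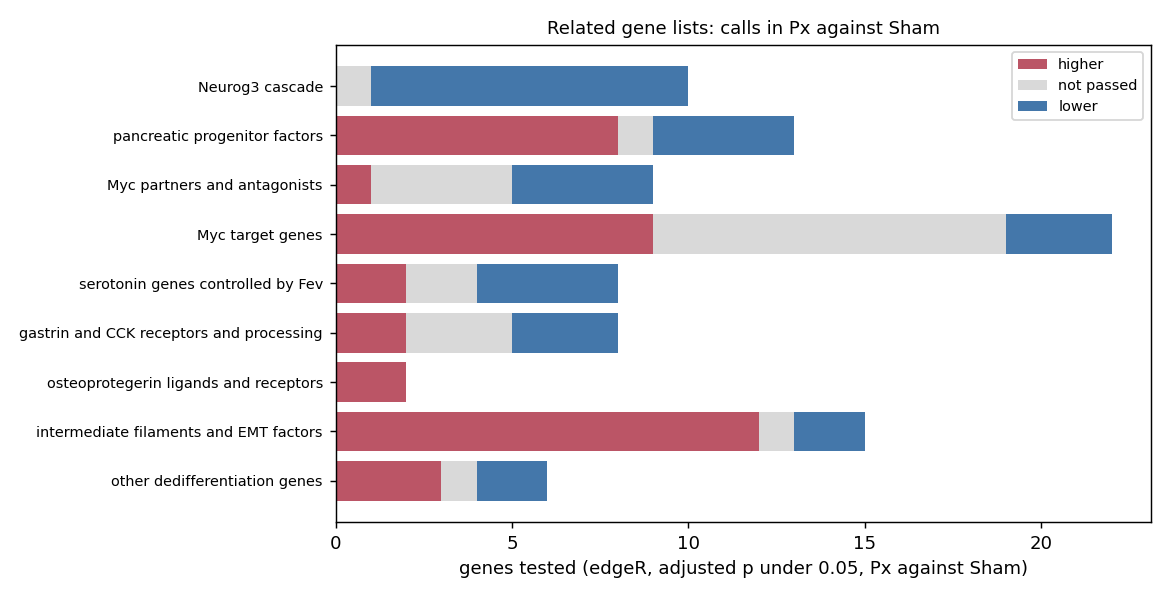
Number of genes tested in each related list (horizontal axis), split into higher, not passed and lower in Px against Sham (edgeR, adjusted p under 0.05). The Neurog3 cascade has 9 lower and 0 higher, while the intermediate filament and transition list has 12 higher and 2 lower; over all genes 34.5% were higher and 30.2% lower.

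The members can be set side by side per kilobase of exon, which allows a comparison of levels between genes. In Sham, Tnfrsf11b was highest at 33.0 ± 3.13 CPM per kilobase, followed by Vim at 12.9 ± 4.31. Fev at 1.86 ± 0.434, Gast at 1.39 ± 0.541 and Mycl at 1.13 ± 0.275 lay within about 1 SD of their neighbour, and Myc was at 0.712 ± 0.220. In lower-glucose Px the order began with Vim at 163 ± 51.1, then Tnfrsf11b at 14.5 ± 3.50 and Myc at 6.64 ± 2.28. In higher-glucose Px it was Vim at 89.6 ± 19.2, Tnfrsf11b at 8.0 ± 1.18 and Myc at 5.46 ± 0.197. Vim and Tnfrsf11b had thus changed places, and Myc had passed Fev, Gast and Mycl.

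**Figure D5:**
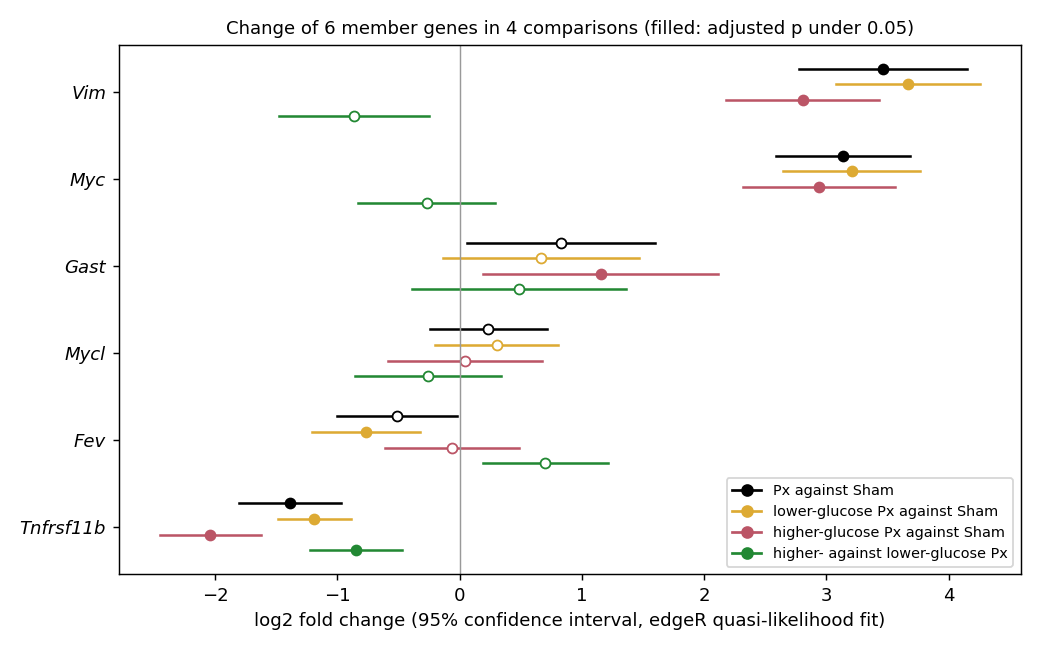
Log2 fold change with 95% interval for 6 members in 4 comparisons; filled points passed at an adjusted p under 0.05 (edgeR). Vim and Myc stand near 3 in each comparison with Sham, Tnfrsf11b is below 0 in all 4, and the comparisons with Sham share the same 5 Sham rats.

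Within Px the comparison nearest to the question of high glucose was that of higher- with lower-glucose rats, which had the same surgery. Of the 6 members, 0 were called higher and 1 lower. Among the related lists, 1 serotonin gene (Tph1), 1 processing gene (Tpst1) and 1 cadherin (Cdh2) were higher and 1 lamin (Lmnb1) lower, and none of these 4 passed with library totals. The Neurog3 cascade, the progenitor factors, the Myc partners, the Myc targets, the osteoprotegerin list and the further dedifferentiation genes held 0 calls, with 3563 of 15661 genes at an unadjusted p under 0.05 in this fit. In the slope on log2 glucose among the 7 lower-glucose rats 0 of the 15695 genes tested passed with edgeR (percent called 0), 1432 had an unadjusted p under 0.05, limma voom called 0 and DESeq2 called 72 higher and 29 lower. The members' slopes ran from −0.85 (Gast) to −0.05 (Fev) per doubling of glucose, with adjusted p from 0.696 to 0.986.

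Across the 10 Px rats Tnfrsf11b and Vim varied together, with Pearson r = 0.87 and Spearman rho = 0.82 for log2 CPM, while both stood in opposite directions against Sham. Mycl and Vim had r = 0.71 and rho = 0.67. These are descriptions of 10 libraries that share differences in depth and in cell makeup. Among 9733 genes of at least 5 CPM, those closest to Vim were Afap1, an actin filament protein (r = 0.96, rho = 0.96), and Timp2, an inhibitor of matrix proteases (r = 0.95, rho = 0.95). Closest to Tnfrsf11b were Birc2, an inhibitor of apoptosis (r = 0.98, rho = 0.99), and the syntaxin Stx3 (r = 0.98, rho = 0.93). Closest to Myc were Cited2, a transcriptional coregulator (r = 0.91, rho = 0.79), and Qars (r = 0.87, rho = 0.66). Mycl stood closest to Arhgap45 (r = 0.97, rho = 0.84) and Lyc2 (r = 0.95, rho = 0.89). Fev stood closest to Optn (r = 0.94, rho = 0.83) and Atp13a3 (r = 0.93, rho = 0.93), and Gast to Rbpms (r = 0.93, rho = 0.66) and Swi5 (r = 0.87, rho = 0.71). These genes were picked as the highest among 9733 candidates over 10 libraries, a search that favours high values. No reference for such a search was computed, and shared control was not tested.

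The authors' deposited table of log2 fold changes, whose sign is Px relative to Sham, lists 7 of the members. In the authors' deposited table Vim stood at 3.41, Myc at 3.10 and Tnfrsf11b at −1.45 (adjusted p of 6.68e-08, 1.28e-06 and 1.33e-05). The authors' deposited table calls Fev lower (−0.57, adjusted p = 0.0285), where the edgeR fit over the same rats did not (adjusted p = 0.0619), and lists Gast at 0.78 (0.0894), Mycl at 0.25 (0.334) and Neurog3 at −0.21 (0.811). Sox11 and Cck were not among its listed genes.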

How the data were processed

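Islet RNA of 15 rats was analysed from the deposited table of raw read counts per gene, made by the authors with Subread and featureCounts after FastQC, per the submitters' processing notes. No source used here gives the genome build, the annotation or the strand setting. The deposited exon lengths, in bases per the file headers, gave levels per kilobase. The authors' deposited comparison table holds log2 fold changes, a fold change ratio and p-values per gene, per the file headers, with limma named in the submitters' processing notes; only its log2 and adjusted p columns were used. No column of other samples was present (0).

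Groups came from titles and labelled glucose, with a boundary of 300. Genes were filtered with filterByExpr (minimum count 10, total 15), scaled by TMM and tested with edgeR 4.0.16 (glmQLFit, glmQLFTest, R 4.3.3), two-sided, at an adjusted p of 0.05: Px against Sham in a fit of 2 groups, the other contrasts in a fit of 3, the slope in the 7 lower-glucose rats. Members under the filter and marker shares had exact permutation tests. Levels of zero-count groups use a floor of 3 counts, and intervals (95%) cover counting error only. Alternatives were other scalings, filters, DESeq2 1.42.0, limma 3.58.1 voom, marker covariates (mean log2 CPM of a list, or the acinar share of counts) and leaving out each rat. On simulated counts (100 genes changed per size), 84% of 2-fold and 98% of 4-fold changes were recovered for Px against Sham (12 false calls among 14996 genes), 70% and 97% for higher- against lower-glucose Px (8 among 15340), and 5% and 61% for the slope (6 among 15413). The changed genes had a mean over 1 CPM and a random direction, and all other genes were left unchanged. In the real data most genes were called in Px against Sham and the scale moved the calls. The simulation therefore does not measure errors of scaling, nor recovery of genes under 1 CPM.

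The members and gene lists were chosen with earlier results of these data known. Besides the members, up to 3 rising and 3 falling genes per list by smallest p in Px against Sham, up to 2 each between the Px groups, and the 2 genes closest to each tested member (mean of at least 5 CPM, prior count 2) are named; Max, Pax4, Cckar, Cckbr, Tnfsf11, Snai2, Prox1 and Mxd4 were added after their values were seen. Sequences are RefSeq GRCr8, matched by symbol. Values of 1 listed gene are not reported here.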

Additional observations from a re-analysis of the deposited data

Results flagged for a closer look

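In 41 groups of values examined, 4 held a library far from the rest of its group, and chance marks about 1 group in 20. Lower-glucose rat 8 stood apart for Mycl, at 7.02 CPM against 4.63 CPM in the next rat of its group. The same rat had the highest macrophage marker share, 0.467% of counts against 0.127% in the next rat, and the highest lymphocyte marker share, 0.0198% against 0.00705%. It also had the highest Vim and Tnfrsf11b of its group. The part of these cells in its Mycl level was not tested. Sham rat 25 had an acinar marker share of 15.3% against 4.55% in the next Sham rat.

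Tnfrsf11b differed between the Px groups by a test of the difference itself, with a log2 change of −0.85 in higher- against lower-glucose Px (edgeR, adjusted p = 0.0118), lower in 3 of 3 higher-glucose rats than in any of the 7 lower-glucose rats.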

How the results depend on the processing

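No paired analysis was possible because each rat number occurs in 1 group only. Among recomputed changes of single members, 569 kept their direction and side of the threshold, 25 reversed, 17 newly passed and 14 no longer passed. Both the scale and the marker covariates moved the calls. In Px against Sham the median of all genes was 0.02, −0.62 with library totals and 0.61 with scaling by 8 granule genes, and 53.3%, 25.1% and 92.8% of the calls were higher. Calls there were 5242 higher and 4596 lower, against 2667 and 7950 with totals and 9175 and 715 with granule genes. In lower-glucose Px they were 3089 and 7134 with totals and 10025 and 624 with granule genes. In higher-glucose Px they were 1865 and 9074 with totals, and 1056 were lower with granule genes. Between the Px groups totals gave 46 higher and 96 lower (32.4% higher against 67.4%), granule genes 139 higher (33.3%) and DESeq2 678 lower (50.3%). Covariates in Px against Sham left 2969 lower (acinar share), 1507 higher and 943 lower (mesenchymal score) and 0 in either direction (macrophage score). Each of these covariates separated Px from Sham without overlap, so such fits cannot tell surgery from cell makeup.

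Members called in Px against Sham were 2 lower with totals, DESeq2 or limma voom, 4 higher with granule genes or without the filter (which adds Sox11 and Cck to the genes tested), 1 higher with the mesenchymal score, and 0 higher and 0 lower with the macrophage score. In lower-glucose Px 4 were higher with granule genes or no filter and 0 lower with granule genes. In higher-glucose Px 3 were lower with totals, and between the Px groups 2 were lower with DESeq2. For the slope DESeq2 called 72 genes higher and 29 lower, and edgeR without the filter 1 lower. Without each rat in turn, members called lower ranged from 1 to 2 in Px against Sham and from 0 to 2 between the Px groups, where all genes ranged from 242 to 636 higher and from 28 to 347 lower.

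Among the 6 members tested, directions reversed only for changes that had not passed; called genes of the related lists did change sign with the scaling, 9 of the 12 called in the Myc target list in Px against Sham. Mycl was −0.37 (totals), −1.44 (macrophage score) and −0.33 (mesenchymal score) in Px, −0.18 in lower- and −0.96 in higher-glucose Px with totals, and −0.19 to 0.20 in the latter without each rat. Fev was 0.089 (granule genes) and 0.63 (mesenchymal score) in Px and 0.41 (granule genes) or −0.43 to 0.10 (without each rat) in higher-glucose Px. Gast between the Px groups was −0.065 to 0.78 without each rat. Slopes with totals were 0.27 (Myc), 0.59 (Mycl), 0.61 (Fev), 0.63 (Tnfrsf11b) and 0.043 (Vim). Without each rat they were −0.41 to 0.26 (Mycl), −0.46 to 0.46 (Fev), −1.22 to 0.41 (Gast) and −0.32 to 0.34 (Tnfrsf11b). The cause of these shifts was not tested. Depth limits Neurog3, Sox11 and Cck, and the self-test shows that a 2-fold change per doubling of glucose was recovered in 5% of cases.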
